A study of Mus musculus with 20 samples.

Results

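The genes described here mark fibroblasts of the leptomeninges, the thin membranes that cover the brain. The set was chosen by gene name and holds 8 genes of the 25190 in the mouse hippocampal count table: Dcn, Lum, Ogn, Slc6a13, Slc22a6, Ptgds, Igf2 and Aldh1a2. RNA sequencing was done on hippocampal tissue of 20 wild-type male C57BL/6JOlaHsd mice aged 4 months by their labels, 5 in each of 4 groups. The sample labels and the methods name the hippocampus, whereas the series' design text names its CA1 region. Mice of the Control group received small RNAs (sRNAs) pooled from the post-mortem hippocampus of unaffected people. Mice of the Pool 1 and Pool 2 groups received sRNAs pooled from 2 separate sets of people with schizophrenia, and Vehicle mice received artificial cerebrospinal fluid. All 4 groups carried bilateral cannulas in the dorsal CA1, were infused repeatedly and were tested for behaviour, and the tissue was taken 24 h after the final test. Each pool was a single preparation given to all 5 mice of its group, so the spread between mice holds no spread between preparations.

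The leptomeninges consist of the arachnoid and the pia, and the pia follows the surface of the hippocampus. Their fibroblasts lay down a collagen-rich matrix, form part of the barrier between blood and cerebrospinal fluid, and secrete signals such as retinoic acid and insulin-like growth factor 2. Decorin (Dcn), lumican (Lum) and osteoglycin (Ogn) are small leucine-rich proteoglycans that bind collagen. Slc6a13 (GAT2) carries GABA and taurine, Slc22a6 (OAT1) carries organic anions, and both are barrier transporters. Ptgds makes prostaglandin D2 and is secreted into the cerebrospinal fluid. Aldh1a2 makes retinoic acid from retinaldehyde. Igf2 is an imprinted growth factor that the choroid plexus also makes.

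The libraries held 20588280 to 25543939 counts (median 23343139), and the 8 genes together took 0.0182% to 0.147% of them. All 8 genes had counts above 0 in every library, from 6 counts for Igf2 to 31270 for Ptgds at the extremes. Of 24 other fibroblast genes, which include type I and III collagen and the transcription factors Foxc1 and Tbx18, all were likewise counted in every library. In the library of Vehicle replicate 4 the 12 choroid plexus markers summed to 9441 counts per 1000000 library counts (CPM), against 102 to 2393 CPM in the other mice. In that of Pool 2 replicate 1 the 10 interferon response markers summed to 185 CPM, against 19.1 to 51.6 CPM elsewhere. The members' fold changes of Pool 2 are given with and without these 2 libraries.

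The genes lie on 7 chromosomes, and Dcn and Lum are neighbours. In the GRCm38 build, Dcn lies on the plus strand of chromosome 10 at 97479609 to 97518143, and Lum follows on the same strand at 97565128 to 97572703, 46984 bases on with no other gene of the table between them. Slc6a13 lies 5342 bases from Slc6a12 on chromosome 6, Slc22a6 lies 6203 bases from Slc22a8 on chromosome 19, and Ogn lies 15223 bases from the proteoglycan gene Omd on chromosome 13. Igf2, on the minus strand of chromosome 7, overlaps Gm49394 and Mir483 on its own strand, and reads in the shared part cannot be assigned to a single gene. Ptgds lies on chromosome 2 and Aldh1a2 on chromosome 9.

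Slc6a13, Slc22a6 and Aldh1a2 were the members whose levels varied most closely together over the mice, and the DNA just before their starts is shown for that reason. These are the 180 bases upstream of the earliest annotated start, at chr6:121300047-121300226, chr19:8617816-8617995 and chr9:71215609-71215788, all on the plus strand of GRCm38.p6 and all taken from RefSeq, with motif matches in capitals.
Slc6a13: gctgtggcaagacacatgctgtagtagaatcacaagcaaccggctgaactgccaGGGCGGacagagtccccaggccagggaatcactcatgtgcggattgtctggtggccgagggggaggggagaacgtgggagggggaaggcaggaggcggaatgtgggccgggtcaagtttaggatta
Slc22a6: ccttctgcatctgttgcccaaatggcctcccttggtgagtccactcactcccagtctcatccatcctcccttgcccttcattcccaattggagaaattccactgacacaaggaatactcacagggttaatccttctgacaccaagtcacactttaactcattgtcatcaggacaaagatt
Aldh1a2: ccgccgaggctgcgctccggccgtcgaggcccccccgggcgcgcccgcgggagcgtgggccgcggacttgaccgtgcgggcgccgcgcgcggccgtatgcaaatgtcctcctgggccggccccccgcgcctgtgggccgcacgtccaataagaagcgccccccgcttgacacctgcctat
The 3 stretches differ in base composition, with 60% GC for Slc6a13, 47.2% for Slc22a6 and 77.2% for Aldh1a2, against a median of 53.3% over 32851 promoters. Both strands were searched for TATAAA (the TATA box), AGGTCA (a nuclear receptor motif), TAAACA (a forkhead core), GGGCGG (the GC box) and GGTGTG (a T-box core). The only match was a GC box in Slc6a13, on the plus strand from position -126 relative to the start, and 30.2% of all promoters of the same length hold that motif. The other motifs occur in 8.94% of promoters for TATAAA, 10.3% for AGGTCA, 8.5% for TAAACA and 12.2% for GGTGTG. Of the 8 members, 6 have a RefSeq promoter entry in the table used, and Dcn and Lum are named only.

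Ptgds was by far the most abundant of the 8 genes per length of transcript. Over the 20 mice its mean level was 232 CPM per kilobase of merged exons. The other members followed at 3.03 for Slc6a13, 2.60 for Aldh1a2, 2.44 for Dcn, 2.39 for Ogn, 1.56 for Lum, 0.906 for Slc22a6 and 0.186 for Igf2, in the same unit. The Igf2 value is limited by its overlap with Gm49394 and Mir483 on the same strand. In Vehicle mice, Dcn (2.42 ± 1.64, SD, n = 5), Ogn (2.57 ± 0.953), Slc6a13 (2.32 ± 1.03) and Aldh1a2 (2.17 ± 1.17) differed by less than their spread. Ptgds, at 198 ± 60.9 CPM per kilobase there, lay far above all of them.

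The most visible feature of these genes was variation between mice of the same group. Over the 20 mice the highest level exceeded the lowest 5.30-fold for Lum, 6.70-fold for Dcn, 7.17-fold for Ogn, 7.87-fold for Ptgds, 7.92-fold for Slc6a13, 10.6-fold for Slc22a6, 15.6-fold for Igf2 and 16.2-fold for Aldh1a2. The mean of the 8 standardized log2 levels (each gene in units of its own SD over the 20 mice) was highest in Pool 2 replicate 4, at 2.10. It was next highest in Pool 2 replicate 5 (1.11), Pool 1 replicate 5 (0.84), Pool 2 replicate 2 (0.80) and Vehicle replicate 5 (0.78). The lowest values were -1.09, -1.06 and -0.78 in Pool 1 replicates 2, 4 and 3, and -0.93 in Control replicate 2. Pool 2 thus held 3 of the 4 highest mice, but its replicates 1 (-0.69) and 3 (-0.39) lay in the lower part of the range.

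**Figure D1:**
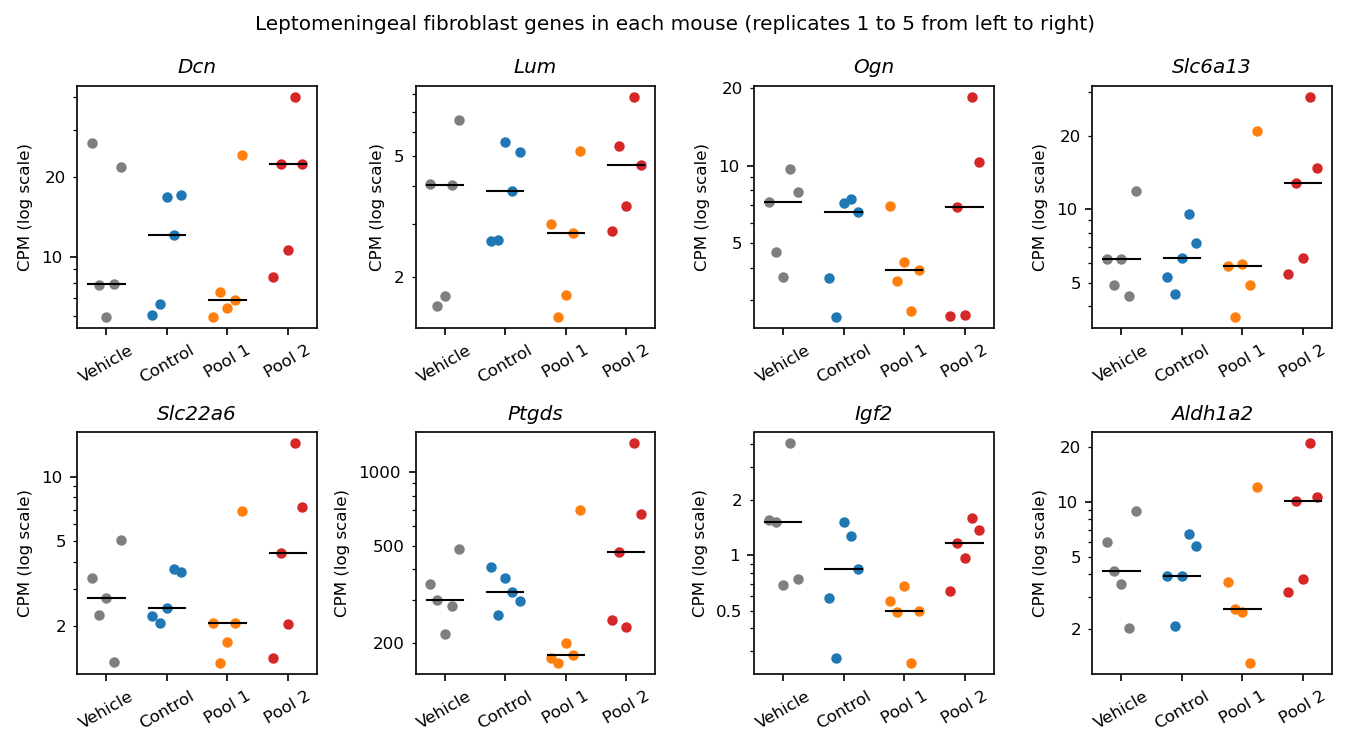
Levels of the 8 genes in each mouse, in CPM on a log scale, with 1 point per mouse in replicate order and a black line at the median of each group of 5. In Pool 1, replicate 5 stands above the other mice for Dcn, Slc6a13, Slc22a6, Ptgds and Aldh1a2, and Pool 2 splits into high mice (replicates 2, 4 and 5) and low mice (replicates 1 and 3) for the same genes.

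The GABA and taurine transporter Slc6a13 had levels of 6.28, 4.89, 6.26, 4.43 and 11.9 CPM in Vehicle replicates 1 to 5. In Control mice they were 5.28, 4.48, 6.31, 9.54 and 7.30 CPM. In Pool 1 they were 5.87, 3.63, 5.97, 4.91 and 20.8 CPM, and in Pool 2 they were 5.44, 12.8, 6.33, 28.8 and 14.7 CPM. All groups overlapped, and replicates 2, 4 and 5 of Pool 2 lay above every Control mouse. The mean was 6.58 ± 1.97 CPM in Control and 13.6 ± 9.37 CPM in Pool 2 (SD, n = 5). The log2 fold change of Pool 2 versus Control was 1.05 with a standard error of 0.50 (edgeR quasi-likelihood test, adjusted p = 0.650), which narrowly missed the threshold of the study on its p.

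The organic anion transporter Slc22a6 was likewise highest in replicates 4 and 5 of Pool 2 and replicate 5 of Pool 1. Its levels were 3.37, 2.25, 2.70, 1.36 and 5.07 CPM in Vehicle and 2.24, 2.06, 2.44, 3.70 and 3.58 CPM in Control replicates 1 to 5. They were 2.06, 1.34, 1.70, 2.07 and 6.89 CPM in Pool 1 and 1.42, 4.40, 2.04, 14.3 and 7.22 CPM in Pool 2. Pool 2 enclosed the Control range on both sides, with 3 mice above all Control mice and 2 below them. The log2 fold change of Pool 2 versus Control was 1.07 ± 0.55 (standard error, adjusted p = 0.687), and that of Pool 1 versus Control was 0.01 ± 0.56 (adjusted p = 1).

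Ptgds, the prostaglandin D2 synthase, had levels of 347, 301, 217, 284 and 486 CPM in Vehicle and 408, 261, 368, 322 and 296 CPM in Control. In Pool 1 the levels were 175, 166, 200.2, 179.5 and 702 CPM, and in Pool 2 they were 248, 469, 233, 1305 and 671 CPM. Replicates 1 to 4 of Pool 1 lay below all Control mice, whereas replicate 5 lay above them all. The log2 fold change was -0.22 ± 0.48 for Pool 1 versus Control (adjusted p = 0.988) and 0.82 ± 0.48 for Pool 2 versus Control (adjusted p = 0.733). Between the pools, Ptgds was higher in Pool 2, with a log2 fold change of 1.04 ± 0.48 (adjusted p = 0.573), although the ranges overlapped. Ptgds is also made by oligodendrocytes, and the list of 8 oligodendrocyte markers had no gene past the threshold in any comparison. Over the 20 libraries Ptgds correlated with the mean of that list at r = 0.32 (rho = 0.36). The value was 0.29 as deviations from the group means and 0.19 without Pool 1 replicate 1. The part of oligodendrocytes in the Ptgds levels was not tested.

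Aldh1a2, which makes retinoic acid, had levels of 5.98, 4.16, 3.51, 2.02 and 8.89 CPM in Vehicle and 3.89, 2.06, 3.91, 6.64 and 5.75 CPM in Control. They were 3.60, 2.56, 2.47, 1.29 and 12.1 CPM in Pool 1 and 3.20, 10.05, 3.75, 20.9 and 10.7 CPM in Pool 2. As for the transporters, replicates 2, 4 and 5 of Pool 2 and replicate 5 of Pool 1 lay above all Control mice. The log2 fold change was 1.13 ± 0.60 for Pool 2 versus Control (adjusted p = 0.696) and 1.14 ± 0.60 for Pool 2 versus Pool 1 (adjusted p = 0.641). Of 17 other retinoic acid genes, 2 were past the threshold in Pool 2 versus Control, both higher. These were Dhrs3, a retinaldehyde reductase, at 0.32 ± 0.12 (adjusted p = 0.501), and Crabp2, a retinoic acid binding protein, at 1.06 ± 0.41 (adjusted p = 0.547). The same 2 genes were past it in Pool 2 versus Pool 1, 0.41 for Dhrs3 and 0.96 for Crabp2, and Rdh10 (-0.31) and Rxrg (-0.69) were past it as lower in Control versus Vehicle. Pool 1 versus Control had none. On leaving out Pool 2 replicate 4, 1 of these genes was past it in each comparison with Pool 2, and without Pool 1 replicate 1 there were 4 between the pools.

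Among the proteoglycans, Dcn had levels of 26.9, 7.84, 5.98, 7.94 and 21.8 CPM in Vehicle and 6.08, 6.66, 16.8, 12.1 and 17.1 CPM in Control. It had 5.99, 7.40, 6.45, 6.89 and 24.3 CPM in Pool 1 and 8.46, 22.4, 10.7, 40.1 and 22.5 CPM in Pool 2. Replicates 2, 4 and 5 of Pool 2 lay above the Control range, yet 2 Vehicle mice reached 21.8 and 26.9 CPM. Its log2 fold change of Pool 2 versus Control was 0.83 ± 0.55 (adjusted p = 0.779). Lum ranged from 1.60 to 6.61 CPM in Vehicle, 2.64 to 5.57 CPM in Control, 1.48 to 5.19 CPM in Pool 1 and 2.83 to 7.85 CPM in Pool 2, and its log2 fold change of Pool 2 versus Control was 0.29 ± 0.39. Ogn ranged from 3.67 to 9.65 CPM in Vehicle, 2.58 to 7.43 CPM in Control, 2.71 to 6.96 CPM in Pool 1 and 2.61 to 18.5 CPM in Pool 2, with a log2 fold change of 0.58 ± 0.47. In Pool 1 replicate 5, where Dcn and Lum were the highest of their group, Ogn was at 3.90 CPM, the median of its group.

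Igf2 had another order of mice than the other members. Its levels were 1.56, 1.52, 0.686, 4.04 and 0.745 CPM in Vehicle replicates 1 to 5, and 0.581, 0.278, 1.52, 1.27 and 0.840 CPM in Control. They were 0.566, 0.493, 0.679, 0.259 and 0.498 CPM in Pool 1, and 0.640, 1.17, 0.958, 1.59 and 1.37 CPM in Pool 2. The highest mouse was Vehicle replicate 4, the one with the high choroid plexus markers, and Pool 1 replicate 5 lay within the range of its group. Replicates 2 to 5 of Pool 2 lay above all Pool 1 mice, and replicate 1 lay within their range. Igf2 was higher in Pool 2 than in Pool 1, with a log2 fold change of 1.20 ± 0.47 (adjusted p = 0.461). The means were 1.15 ± 0.367 and 0.499 ± 0.154 CPM (SD, n = 5). At 6 to 92 counts per library, Igf2 was the member with the fewest counts, and its counting error is accordingly the largest. Of 14 other genes of the insulin-like growth factor system, 3 were past the threshold in Pool 2 versus Pool 1, all higher. Igfbp5 and Igfbp7, which encode binding proteins, had log2 fold changes of 0.50 ± 0.19 and 0.55 ± 0.24. The third gene, the imprinted RNA H19 (72622 bases from Igf2), had counts of 0 in some libraries, and no fold change is given. The RNA-binding protein gene Igf2bp2 was lower in Pool 1 than in Control (-0.80 ± 0.31), and the 2 other comparisons had no gene of this system past the threshold. The count between the pools was 1 without Pool 2 replicate 1.

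Whether an sRNA pool from patients changed these genes was asked by setting each pool against Control. The threshold was that of the study, a log2 fold change of 0.3 or more in either direction with an unadjusted p under 0.05, and the Benjamini-Hochberg adjusted p over all 25190 genes is given beside it. In Pool 1 versus Control, 0 of the 8 genes were past the threshold, where 1.48% of all genes were past it as higher and 1.99% as lower (3.48% in all). The log2 fold changes ran from -0.84 ± 0.48 for Igf2 (adjusted p = 0.917) to 0.33 ± 0.50 for Slc6a13, with a median of -0.21 against -0.0054 over all genes. Without Vehicle replicate 4 and Pool 2 replicate 1, neither of which belongs to the 2 groups compared but both of which enter the pooled spread, Igf2 was past it at -0.84 (adjusted p = 0.885). In these 18 libraries 2.3% of all genes were past it as lower. Leaving out Pool 1 replicate 5 moved Aldh1a2 from -0.01 to -0.84 and Slc6a13 from 0.33 to -0.37. Ptgds was then past the threshold as lower, as were 2.66% of all genes. On leaving out Control replicate 2, Igf2 was past it as lower, as were 1.6% of all genes.

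In Pool 2 versus Control, all 8 log2 fold changes were above 0, from 0.29 for Lum to 1.13 for Aldh1a2, and 0 of 8 were past the threshold, where 5.2% of all genes were past it as higher and 1.01% as lower (6.22% in all). Their median was 0.82, against 0.0029 over all genes. The members were not independent, since they vary together over mice. Without Vehicle replicate 4 and Pool 2 replicate 1, 3 of 8 were past the threshold as higher, against 3.38% of all genes. These were Slc22a6 at 1.31 (adjusted p = 0.849), Slc6a13 at 1.25 (adjusted p = 0.878) and Aldh1a2 at 1.35 (adjusted p = 0.908). The other members were then at 1.03 for Dcn, 1.02 for Ptgds, 0.81 for Ogn, 0.50 for Igf2 and 0.43 for Lum. Without Pool 2 replicate 4, in contrast, the median of the 8 genes was 0.36 and 0 were past it, while without Pool 2 replicate 3 there were 4 and without Control replicate 4 there was 1 (Slc6a13). Of all genes, 5.2%, 5.49% and 5.25% were past it as higher in these 3 settings.

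Control versus Vehicle asks what the sRNAs of unaffected people did beyond the infusion itself. Here 1 of 8 was past the threshold, Igf2 with a log2 fold change of -0.93 ± 0.44 (adjusted p = 0.740), where 3.41% of all genes were past it as lower and 1.7% as higher (5.1% in all). Igf2 was at -0.33 without Vehicle replicate 4 and Pool 2 replicate 1, and the call was lost on leaving out singly Vehicle replicate 1, 2 or 4 or Control replicate 1, 2 or 5. The other 7 genes lay between -0.27 and 0.14. The comparison shares its Control mice with those of both pools.

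Pool 2 versus Pool 1 compares mice given sRNAs from separate sets of patients, and had the most members past the threshold. All 8 log2 fold changes were above 0, between 0.72 for Slc6a13 and 1.20 for Igf2 with a median of 1.03, against 0.02 over all genes. Ptgds and Igf2, 2 of 8, were past the threshold as higher, where 5.66% of all genes were past it as higher and 1.16% as lower (6.82% in all). Igf2 was past it in every other processing of the counts and with each of the 10 mice left out in turn. Ptgds was not past it with the 2 groups alone, nor with 6 of these 10 mice left out singly. The count for the 8 genes was 7 without Vehicle replicate 4 and Pool 2 replicate 1 (against 3.91% of all genes as higher), all but Slc6a13, with log2 fold changes of 0.90 for Lum to 1.36 for Aldh1a2 among the 8, and 7 without Pool 1 replicate 5, all but Ogn. It was 5 without Pool 2 replicate 3, and 1 on leaving out singly Pool 2 replicate 4 or 5 or Pool 1 replicate 2, 3 or 4. Of all genes, 6.49% were past it as higher without Pool 1 replicate 5 and 5.96% without Pool 2 replicate 3. Where the count was 1, the share was 4.61% to 6.09%. No member had groups that did not overlap in any of the 4 comparisons, a separation that few genes had. It was seen as higher and as lower in 0.512% and 0.349% of all genes in Pool 1 versus Control, 0.77% and 0.282% in Pool 2 versus Control, 0.206% and 0.401% in Control versus Vehicle, and 0.977% and 0.433% in Pool 2 versus Pool 1.

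**Figure D2:**
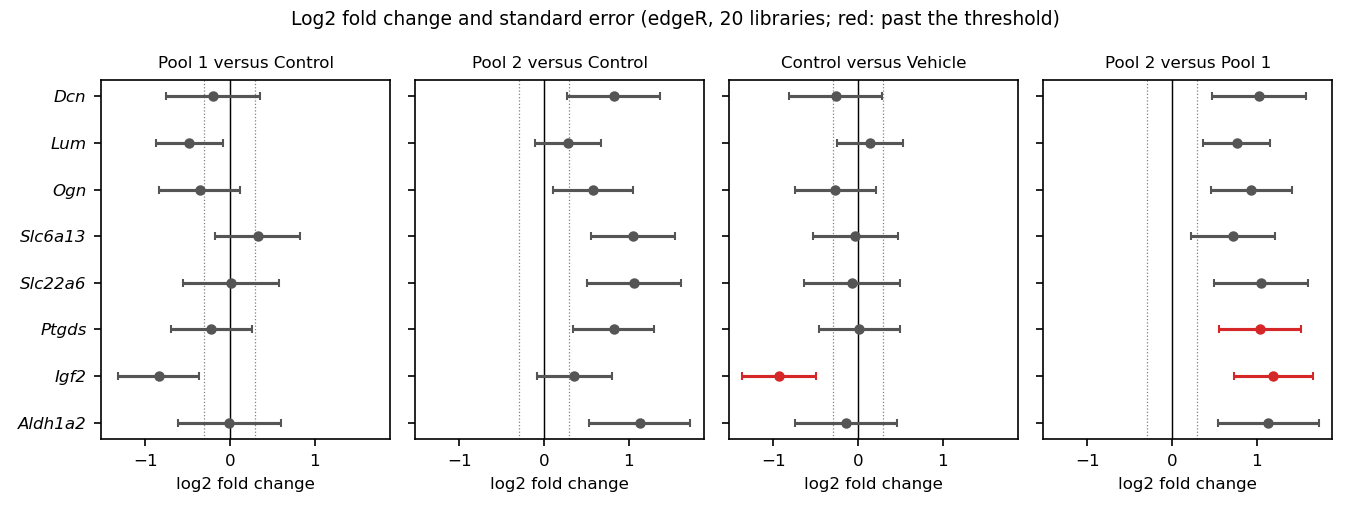
Log2 fold changes of the 8 genes in the 4 comparisons (edgeR, 20 libraries), with bars of 1 standard error, dotted lines at 0.3 in either direction and red marks for genes past the threshold. The points of Pool 2 versus Control and Pool 2 versus Pool 1 all lie to the right of 0, and only Igf2 in Control versus Vehicle and Ptgds and Igf2 in Pool 2 versus Pool 1 are red.

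No gene of the whole table reached an adjusted p under 0.05 in any comparison with the main edgeR fit, that of the 4 groups over the 20 libraries. The counts at an unadjusted p under 0.05 were 1314 for Pool 1 versus Control (5.22%), 1939 for Pool 2 versus Control (7.7%), 1672 for Control versus Vehicle (6.64%) and 2146 for Pool 2 versus Pool 1 (8.52%), and among the members 0, 0, 1 and 2. DESeq2 gave 7, 18, 0 and 115 genes at an adjusted p under 0.05 in the same order, none of them a member. In edgeR, the replicate block and the 2 groups alone each gave 1 gene in Pool 1 versus Control and 1 in Pool 2 versus Control, again no member. In bulk tissue, a smaller number of fibroblasts and less RNA per fibroblast cannot be told apart, and the amount of pia that came with each hippocampus was not recorded in the sources used here.

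The 8 genes varied together over the mice, apart from Igf2. The Pearson correlation of each gene with the mean of the other 7, over 20 libraries, was 0.90 for Aldh1a2, 0.89 for Dcn and Ptgds, 0.88 for Slc22a6, 0.86 for Slc6a13, 0.80 for Lum, 0.76 for Ogn and 0.40 for Igf2. Without the 2 libraries farthest from the median (Pool 2 replicates 4 and 5) the values were 0.58 for Ogn, 0.30 for Igf2 and 0.76 to 0.86 for the others. As deviations from the group means they were 0.33 for Igf2 and 0.76 to 0.90 for the others, so the common variation is present within groups. Of the 28 pairs, Slc6a13 and Slc22a6 were closest (r = 0.95, Spearman's rho = 0.86), although they lie on different chromosomes. The neighbours Dcn and Lum had r = 0.84 and rho = 0.82. Igf2 was closest to Ogn (r = 0.70, rho = 0.75) and had r = 0.19 with Slc22a6. These are descriptions over 20 libraries that share their groups and normalization.

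The genes outside the set whose levels followed the 8 most closely included Fmod, Foxc1 and Col1a2, which were also on the list of other fibroblast genes. Among 14789 other genes with a mean of at least 1 CPM, the median correlation with the mean of the 8 genes was -0.02, and 0.135% reached 0.8. The 10 closest were Fmod (r = 0.92), Col9a2 (0.90), Itih2 (0.90), Efemp1 (0.89), Colec12 (0.89), Foxc1 (0.89), Slc6a20a (0.88), Col1a2 (0.87), Aox3 (0.87) and Gjb2 (0.86). Fmod encodes the proteoglycan fibromodulin, Col9a2 and Col1a2 encode collagen chains, Efemp1 encodes a fibulin of the matrix, and Foxc1 is a transcription factor needed for the meninges to form. Slc6a20a is an amino acid transporter and Gjb2 encodes connexin 26, a gap junction protein of the leptomeninges. The neighbours of the member transporters followed too, with r = 0.85 for Slc6a12 and 0.68 for Slc22a8.

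Of the 24 other fibroblast genes, 9 were past the threshold in Pool 2 versus Control, all higher, with a median log2 fold change of 0.54. Serpinf1, which encodes the secreted factor PEDF, had 0.69 ± 0.16 (adjusted p = 0.408), the proteoglycan gene Bgn 0.46 ± 0.13 (adjusted p = 0.479), the fibulin gene Fbln1 0.41 ± 0.17 (adjusted p = 0.560) and Fmod 1.22 ± 0.48 (adjusted p = 0.559). In Pool 2 versus Pool 1, 14 were past it, all higher, with a median of 0.71. They included Serpinf1 at 0.81 ± 0.16 (adjusted p = 0.128), the transcription factor Zic1 at 1.86 ± 0.40 (adjusted p = 0.196) and Fbln1 at 0.67 ± 0.17 (adjusted p = 0.210). Pool 1 versus Control had 1, Zic1, lower at -1.12 ± 0.40 (adjusted p = 0.917), and Control versus Vehicle had 1, Bmp6, also lower. Without Vehicle replicate 4 and Pool 2 replicate 1, the counts were 13 in Pool 2 versus Control, 19 in Pool 2 versus Pool 1, 1 in Pool 1 versus Control and 0 in Control versus Vehicle. Without Pool 2 replicate 4 they were 2 in Pool 2 versus Control and 7 in Pool 2 versus Pool 1, and the latter was 9 on leaving out singly Pool 1 replicate 2, 3 or 4. The counts of 1 changed to 2 without Pool 1 replicate 5 in Pool 1 versus Control, and ran from 0 to 4 in Control versus Vehicle.

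Genes that share a family or pathway with the members were counted in the same way. Of 9 other small leucine-rich proteoglycans in the table, 4 were past the threshold in Pool 2 versus Control and 7 in Pool 2 versus Pool 1, all higher. Both counts include Fmod and Bgn, which were also counted among the other fibroblast genes. Omd, the neighbour of Ogn, had 1.14 ± 0.48 (adjusted p = 0.579) and 1.50 ± 0.49 (adjusted p = 0.357) there, and without Pool 2 replicate 4 the counts were 2 and 2. The count between the pools was 4 on leaving out singly Pool 1 replicate 2 or 4 or Pool 2 replicate 2. Pool 1 versus Control had 1 of them lower (Epyc, with counts of 0 in some libraries) and Control versus Vehicle had none. Of 15 prostaglandin genes besides Ptgds, 2 were past it in Pool 2 versus Control and 5 in Pool 2 versus Pool 1, all higher, and none in the other 2 comparisons. The prostaglandin E synthase Ptges had 0.46 ± 0.21 and 0.75 ± 0.21 (adjusted p = 0.628 and adjusted p = 0.276), the prostaglandin E receptor Ptger4 had 0.61 and 0.56, and between the pools Hpgds, the other prostaglandin D synthase, had 0.45 ± 0.18 and the prostaglandin D receptor Ptgdr 1.13 ± 0.48. Without Pool 2 replicate 1 the counts were 0 and 2, and over all mice left out in turn they ran from 0 to 3 and from 2 to 6. Of 11 related transporters, 3 were past it in Pool 2 versus Control and 2 in Pool 2 versus Pool 1, all higher. Slc6a12, the betaine and GABA transporter beside Slc6a13, had 1.28 ± 0.53 and 1.29 ± 0.53, and the organic anion transporter Slc22a8 had 0.45 ± 0.14 and 0.41 ± 0.14. Slco1c1, a thyroid hormone transporter of brain endothelium, was lower in Control than in Vehicle (-0.36 ± 0.14), and Pool 1 versus Control had none. The third transporter in Pool 2 versus Control, Slc22a2, had counts of 0 in some libraries. The count of Pool 2 versus Control was 5 on leaving out singly Control replicate 4 or Pool 2 replicate 1 or 3, and that of Pool 2 versus Pool 1 was 6 without Pool 1 replicate 5 and 1 on leaving out singly 6 other mice.

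Markers of other tissues that a hippocampal dissection can hold were read in the same libraries. The 6 thalamus markers were past the threshold as higher for 5 genes in Pool 2 versus Control and 5 in Pool 2 versus Pool 1, with Lef1 at 0.86 ± 0.26 and 1.26 ± 0.26, Synpo2 at 1.21 and 1.60, Tcf7l2 at 1.22 and 2.18, and Rgs16 at 1.03 and 1.37. Their summed level was 125 to 139 CPM in Vehicle, 73.6 to 189 CPM in Control, 93.2 to 108 CPM in Pool 1 and 112 to 444 CPM in Pool 2. The highest value was that of Pool 2 replicate 4, the mouse with the highest fibroblast genes, and the next (246 CPM) was that of Pool 2 replicate 2. Pool 2 replicate 5 and Pool 1 replicate 5, with high fibroblast genes, had thalamus sums of 112 and 107 CPM. Over the 20 libraries the mean of the thalamus markers correlated with that of the 8 genes at r = 0.66 (rho = 0.57), and at 0.41 without Pool 2 replicate 4. Without Pool 2 replicate 4 the count of markers past the threshold in Pool 2 versus Control was 2, and without Control replicate 1 it was 3. Over the 18 libraries without Vehicle replicate 4 and Pool 2 replicate 1 the counts were 5 in Pool 2 versus Control and 6 in Pool 2 versus Pool 1. None of the 6 was at a count of 0, and their part in the fibroblast results was not tested.

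The choroid plexus markers were, like Igf2, highest in Vehicle replicate 4. Their mean correlated with Igf2 at r = 0.69 (rho = 0.50, and r = 0.49 without Vehicle replicate 4), with Ogn at 0.17, and with the remaining 6 members at -0.32 to 0.00. Of the 12 markers, 4 were lower in Control than in Vehicle, namely Otx2 (-1.68 ± 0.56), Prlr (-1.87 ± 0.83), Kl (-1.10 ± 0.51) and Clic6 (-1.74 ± 0.82). Otx2 was also lower in Pool 1 than in Control (-1.27 ± 0.60) and higher in Pool 2 than in Pool 1 (1.46 ± 0.60). The first of these calls was lost with 7 of 10 mice left out singly, and the second with 2 of 10. Pool 2 versus Control had none of the 12 past the threshold. The median log2 fold change of the 12 between the pools was 0.96, in the direction of Igf2. Without Vehicle replicate 4, 0 of 12 were past the threshold in Control versus Vehicle, without Control replicate 3 all 12 were, without Vehicle replicate 3 or 5 there were 10, and on leaving out singly any other Control mouse there was 1. The summed level was 224 to 9441 CPM in Vehicle, 128 to 2393 CPM in Control, 116 to 319 CPM in Pool 1 and 102 to 1550 CPM in Pool 2, no marker was at 0, and the part of choroid plexus RNA in the Igf2 result was not tested.

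**Figure D3:**
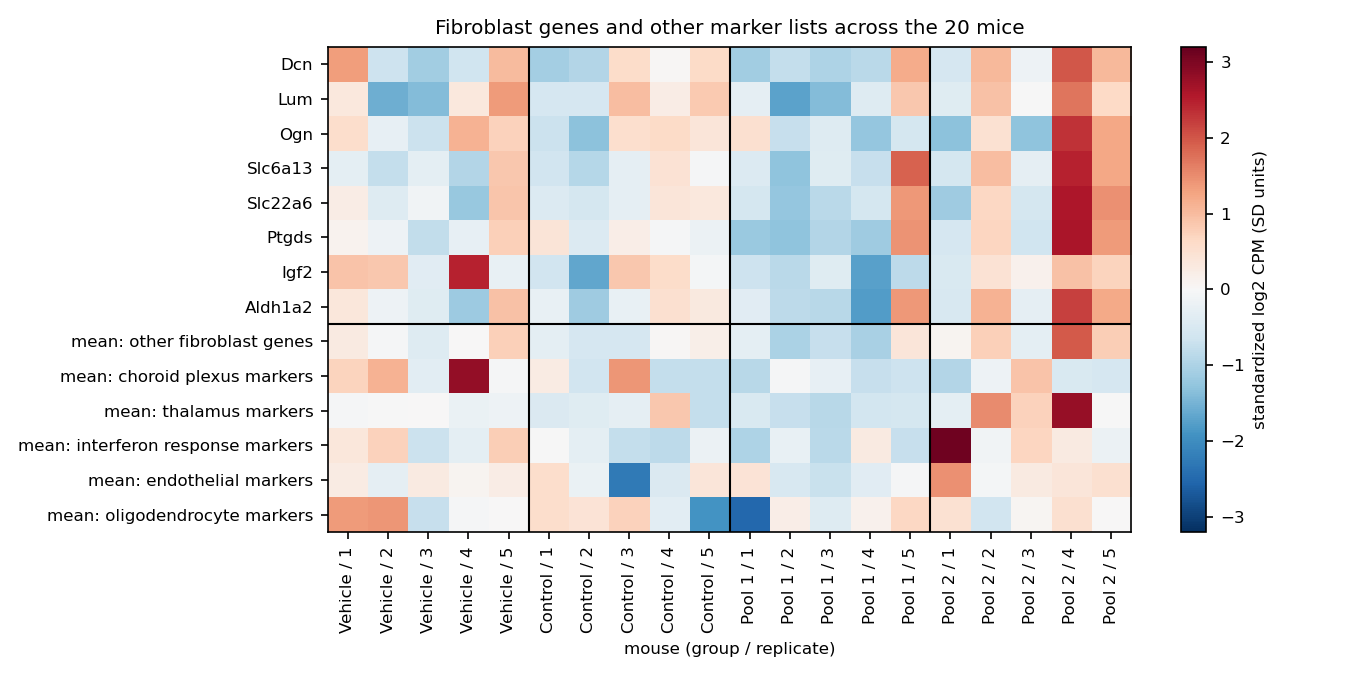
Standardized log2 CPM (SD units over the 20 mice) of the 8 genes, above the black line, and the mean of 6 marker lists, below it, with 1 column per mouse. Pool 2 replicates 2, 4 and 5, Pool 1 replicate 5 and Vehicle replicate 5 are red across most members and across the other fibroblast genes, the choroid plexus list is darkest in Vehicle replicate 4, where Igf2 is darkest, and the interferon list in Pool 2 replicate 1.

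Markers of vessels and blood were read as well. Of 9 endothelial markers, 3 were higher in Pool 2 than in Control (Pecam1 at 0.51 ± 0.16, Cdh5 at 0.48 ± 0.20 and Tek at 0.39 ± 0.17) and 1 in Pool 2 versus Pool 1 (Pecam1 at 0.34 ± 0.16). In Control versus Vehicle 1 was lower (Slco1c1, also counted among the related transporters), and Pool 1 versus Control had none. Without Pool 2 replicate 1 the endothelial count of Pool 2 versus Control was 1, as it was without Control replicate 3, and without Control replicate 1 it was 5. The Pecam1 call between the pools was lost with 7 of 10 mice left out singly. Of 9 mural cell markers, genes of pericytes and smooth muscle, 5 were higher in Pool 2 than in Control, with Pdgfrb at 0.36 ± 0.12, Acta2 at 0.95 ± 0.43, Des at 0.55 ± 0.25 and Vtn at 0.50 ± 0.20. In Pool 2 versus Pool 1, 4 were higher, Pool 1 versus Control had none and Control versus Vehicle had 1 lower. Without Control replicate 3, 0 mural genes were past the threshold in Pool 2 versus Control. On leaving out Pool 2 replicate 4 there were 2 there and 1 in Pool 2 versus Pool 1, and over the 18 libraries there were 6 and 3. Of 5 blood cell markers, 3 were higher in Pool 2 than in Pool 1 (the hemoglobin genes Hba-a1 at 0.68, Hbb-bs at 0.76 and Hbb-bt at 0.69, 0 of them on leaving out singly Pool 2 replicate 1 or Pool 1 replicate 1, 2 or 4), and none in the other comparisons. The mean of the endothelial list correlated with that of the 8 genes at r = 0.07, that of the mural list at 0.37 and that of the blood list at -0.00, against 0.92 for the other fibroblast genes. Without the 2 farthest libraries (Pool 2 replicates 4 and 5) these values were -0.08, 0.0034, 0.06 and 0.85. The mural list had correlations of -0.07 to 0.50 with the single members, and 0.10 to 0.66 without Control replicate 3.

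All 10 interferon response markers were higher in Pool 2 than in Control and than in Pool 1, with Zbp1 at 4.03 and 3.32, Oas1a at 2.07 and 1.91, Irf7 at 1.55 and 1.67, and Rsad2 at 1.20 and 1.10. The counts were 3 and 1 without Pool 2 replicate 1, and without Control replicate 4 the first was 6. In Pool 2 replicate 1 the mean standardized level was -0.69 for the 8 members and 0.08 for the other fibroblast genes. The correlation of the interferon list with the 8 genes was -0.06, and -0.44 as deviations from the group means. Without Pool 2 replicate 1 the list had correlations of -0.0090 (Ogn) to 0.26 (Dcn) with the single members. Rsad2 was lower in Control than in Vehicle (-0.84 ± 0.37), and Pool 1 versus Control had none. Of the 8 oligodendrocyte markers and the 8 hippocampal neuron markers, none was past the threshold in any comparison over the 20 libraries (4 neuron markers were in Pool 2 versus Pool 1 without Pool 1 replicate 1), and their correlations with the 8 genes were 0.10 and -0.22.

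**Figure D4:**
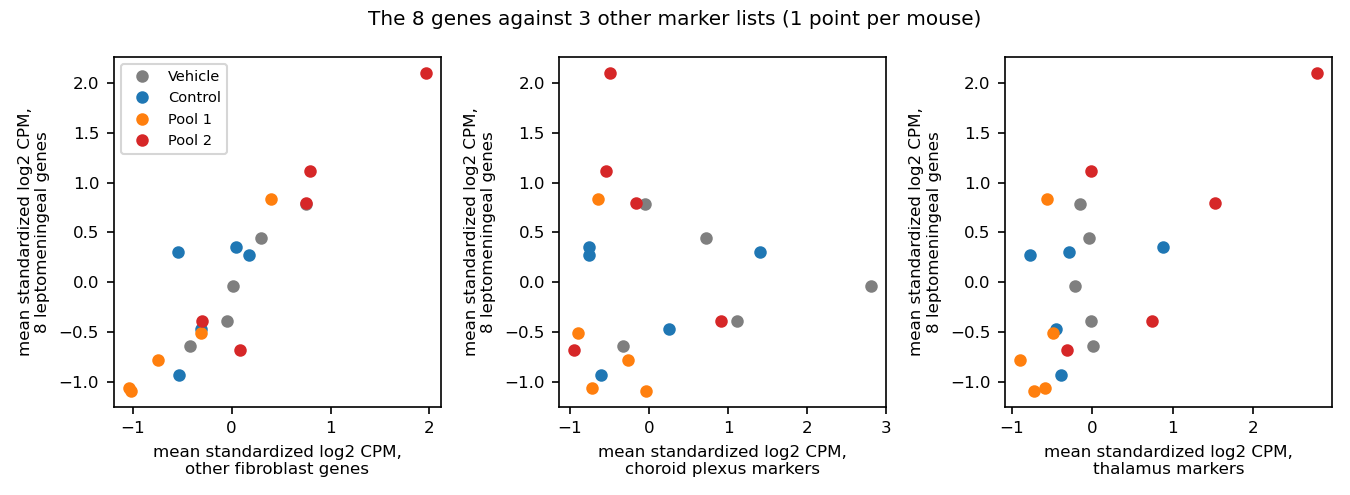
Mean standardized log2 CPM of the 8 genes (vertical) against that of the other fibroblast genes, the choroid plexus markers and the thalamus markers (horizontal), with 1 point per mouse coloured by group. The points rise together for the other fibroblast genes (r = 0.92) and show no common trend for the choroid plexus (r = -0.01). For the thalamus (r = 0.66), Pool 2 replicate 4 lies farthest to the upper right, and Pool 2 replicate 2 has the next highest thalamus mean.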

How the data were processed

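Gene counts of 20 mouse hippocampal libraries were analysed. Per the labels and the study's methods, the authors prepared stranded poly(A) libraries, checked reads with FastQC 0.11.5 and aligned them to GRCm38 with STAR, using the GENCODE M20 annotation, and deposited raw counts per gene without normalization, for genes with a total of at least 10. The small RNA sequencing of human tissue was not analysed here.

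Counts were fitted for the 4 groups together with edgeR 4.0.16 (TMM factors, glmQLFit with robust spread, glmQLFTest) in R 4.3.3, over all 25190 genes, with Benjamini-Hochberg adjustment. Standard errors are the log2 fold change over the root of F. CPM uses TMM library sizes, and correlations use log2 CPM with a prior count of 2. The steps were tested on simulated data. The alternatives were DESeq2 1.42.0, its size factors, filters on low counts (filterByExpr, a mean normalized count of at least 10), the 2 groups alone, a default spread, a replicate block, 18 libraries, and each library left out. DESeq2 over the 18 libraries was added after seeing the data.

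The members and lists were chosen with earlier results of these data known, and likewise the 2 libraries left out of the 18. All members are named. Of each other list, at most the 4 genes with the smallest p among those past the threshold are named, with the 10 genes most like the members. Bmp6 and the neighbouring genes were named after their values were seen. Nothing says how the replicates were collected beyond 1 mouse each, and p-values measure the spread between these mice. Replicate libraries differed by 8.23 to 66.8 times the sampling noise, so none was a repeat of another. Precision is limited by counts: a member had between 6 and 31270 counts in a library.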

Additional observations from a re-analysis of the deposited data

Results flagged for a closer look

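Within a group of 5 mice, a single mouse stood far from the others in 7 of the 32 sets of values (8 genes in 4 groups), by a gap over 0.71 of the whole range. Chance flags about 1 in 20 such groups only where values are normally distributed, whereas CPM was used here without a log scale. All 7 stood apart on the high side, and the genes are not independent, so the number of flags was not set against chance. In Pool 1, replicate 5 was the high mouse for 5 genes, with Dcn at 24.3 CPM against 7.40 in the nearest mouse, Slc6a13 at 20.8 against 5.97, Slc22a6 at 6.89 against 2.07, Ptgds at 702 against 200.2 and Aldh1a2 at 12.1 against 3.60. In Vehicle, Slc6a13 stood apart in replicate 5 (11.9 CPM against 6.28) and Igf2 in replicate 4 (4.04 CPM against 1.56).

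In the direct comparison of the 2 patient pools, 2 genes were past the threshold, with log2 fold changes of Pool 2 versus Pool 1 of 1.04 for Ptgds and 1.20 for Igf2. The Ptgds call was lost with 6 of the 10 mice left out in turn and with the 2 groups alone. Neither had an adjusted p under 0.05 (edgeR, adjusted p = 0.573 and 0.461).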

How the results depend on the processing

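With 5 mice a group and levels of these genes that differ up to 16.2-fold between mice, single mice moved the calls, while no member had an adjusted p under 0.05 in any alternative. In Pool 2 versus Control, where 0 members were past the threshold, DESeq2, filterByExpr, a mean normalized count of at least 10, the 2 groups alone and the replicate block each gave 1 (Slc6a13), the default spread 3, the 18 libraries 3, and those with DESeq2 4. Of all genes, 3.86% to 5.02% were past it as higher in the settings that gave 1. The shares were 5.31% with the default spread, 3.38% over the 18 libraries and 2.67% with DESeq2 there. In Pool 2 versus Pool 1 (2 members) DESeq2 gave 3 (with Lum), the 2 groups alone 1, the default spread 6, the replicate block 5, and the 18 libraries 7, also with DESeq2. The shares of all genes as higher were 4.71%, 4.51%, 5.8%, 5.16% and 3.91% in that order, and 3.14% with DESeq2 over the 18 libraries. In Pool 1 versus Control (0) the 18 libraries gave 1, also with DESeq2, where 2.3% and 1.82% of all genes were past it as lower. In Control versus Vehicle (1) the mean count filter, the 2 groups alone, the replicate block and the 18 libraries, also with DESeq2, gave 0. In these settings 2.74% to 3.37% of all genes were past it as lower. With each library left out, the counts ran from 0 to 1 in Pool 1 versus Control, 0 to 4 in Pool 2 versus Control, 0 to 1 in Control versus Vehicle and 1 to 7 in Pool 2 versus Pool 1. The cause of these shifts was not tested.

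Directions of small differences turned. In Pool 1 versus Control, Slc22a6 was -0.14 with the replicate block and Aldh1a2 0.0033 with the 2 groups alone. In Control versus Vehicle, Ptgds was -0.031 over the 18 libraries with edgeR and -0.021 over the same 18 libraries with DESeq2. With each library left out, log2 fold changes in Control versus Vehicle ran from -0.34 to 0.18 for Aldh1a2, -0.46 to 0.12 for Dcn, -0.043 to 0.48 for Lum, -0.10 to 0.20 for Ptgds, -0.25 to 0.21 for Slc22a6 and -0.20 to 0.27 for Slc6a13. In Pool 1 versus Control they ran from -0.84 to 0.23 for Aldh1a2, -0.64 to 0.19 for Slc22a6 and -0.37 to 0.51 for Slc6a13. No member turned in a comparison with Pool 2.

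Nothing in the labels says that the replicate numbers pair the samples. Over 30 pairs with the same number the correlation of deviations from the group means was -0.38 to 0.30 (median 0.02), over 0.1 in 12. Pairs with different numbers were not compared, so whether mice of the same number share a batch was not tested. The block therefore serves only as a check, and Igf2 in Pool 2 versus Pool 1 had 1.13 with it (edgeR, adjusted p = 0.552).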
